A study of Mus musculus with 2 samples.

Results

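In the epididymal white fat of mice, 201 of the PPARγ-bound regions that the authors listed as specific to that depot lay crowded together in 63 short stretches of the genome, each with 3 or 4 regions. The stretches are called clusters here. They were found by position in the white-specific list alone: regions were sorted by midpoint, each region within 12500 bp of the previous one was joined to it, and groups of 3 or more were kept. Before that, 18 of the 4711 regions were left out as loci with unusually high, crowded scores, where read pile-up is a concern that the list cannot settle: 13 at chr9:3000012-3036553 (scores 12.19 to 55.39) and 5 at chr2:98502406-98507388 (scores 55.39 to 84.31). The clusters held 4.28% of the remaining 4693 regions (exact 95% binomial interval 3.72 to 4.90%). Pairs held another 716 regions, and 3776 regions had no other white-specific region so close.

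PPARγ is a nuclear receptor needed to make fat cells and to keep them working, and it binds DNA together with its partner receptor RXR. In mature fat cells it sits mostly at enhancers, and enhancers near highly active genes often come in groups. Epididymal white adipose tissue (eWAT) stores lipid beside the testis, whereas brown adipose tissue (BAT) burns fuel to make heat, and the list used here holds regions that the authors assigned to the white depot and not to the brown one.

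Both groups were male 129SV mice, 8 to 10 weeks old, on normal chow and a cycle of 12 h light and 12 h dark, killed at zeitgeber time 10 h. PPARγ was precipitated from fat cross-linked with 1% formaldehyde, from 4 mice per depot, and the DNA of the 4 was pooled, so each depot has 1 library (1 eWAT, 1 BAT) and no value below has a replicate check. The depots are whole tissues with several cell types, so more cells bound at a site and more binding per cell cannot be told apart. The tissue of origin was not checked against marker genes, and no region is tied to a gene or sequence here, because the gene positions and sequences at hand belong to another genome build than the lists. Positions on chromosome 7 ran to 152442366, past the end of that chromosome in mm8, so of the 2 builds named by the submitters the positions are read as mm9.

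Each region is 200 bp wide and carries a score deposited by the authors without a unit. The scores of the eWAT list fell on even steps of 0.348, and 99.8% of them were whole multiples of it within 0.005. A score divided by 0.348 is given below as a number of score steps. The library's total depth is unknown. If 1 step is 1 sequenced tag, the clustered regions rest on 5 to 42 tags each, and Poisson intervals on steps cover counting error only. The list and the scores come from the same comparison of depots that defined the regions, so scores and neighbours are described without a test.

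Most clusters were triplets. There were 51 clusters of 3 regions and 12 of 4, and 0 larger ones once those 2 loci were left out. The distance from the first to the last midpoint ran from 2.32 to 24.5 kb with a median of 10.9 kb. Triplets had a median length of 10.5 kb and clusters of 4 a median of 15.5 kb. Outside the cluster, the nearest white-specific region lay 13.0 to 1309 kb away, with a median of 68.6 kb. Where a chromosome held more than 1 cluster, the nearest region of another cluster was a median of 13311 kb away, and 4 clusters had another within 500 kb. So few clusters lie far apart in any case, and no reference spacing was computed.

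**Figure D1:**
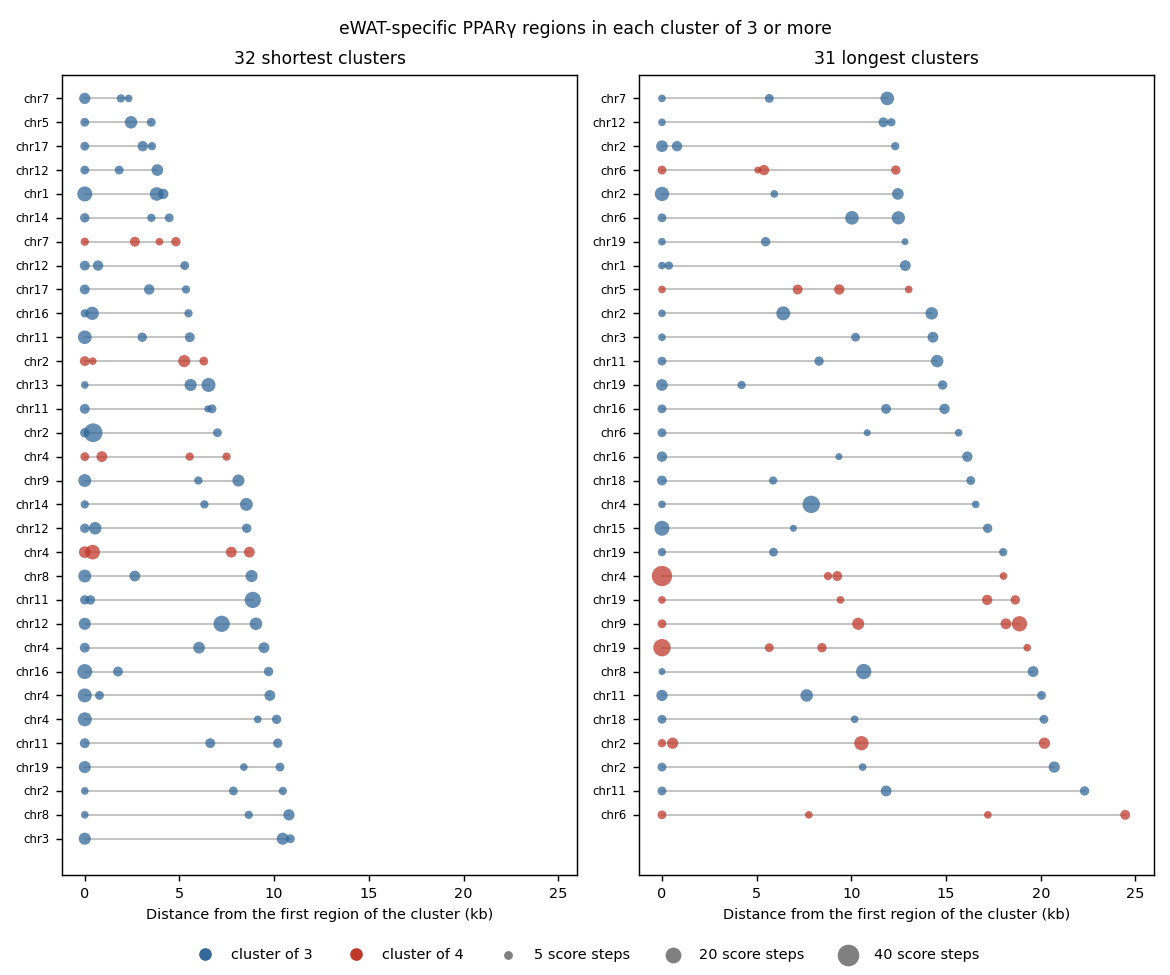
Each row is 1 of the 63 clusters, labelled by chromosome and ordered by length. The x axis gives the distance in kb of each region from the first region of its cluster, and the area of a point is proportional to its score steps. Clusters of 3 are blue and clusters of 4 red. Lengths run from 2.32 kb on chromosome 7 to 24.5 kb on chromosome 6, and the largest point, of 42 score steps, opens a cluster on chromosome 4.

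Within clusters, neighbouring regions were spread over all distances that the joining rule allows. Of the 138 distances between adjacent midpoints, 26 (18.8%, interval 12.7 to 26.4%) were up to 1 kb, 38 were 1 to 5 kb, 53 were 5 to 10 kb and 21 were longer. The median was 5.67 kb. The shortest, 222 bp, lay on chromosome 11 in the cluster at chr11:3377540-3384456, named for this value, where regions of scores 1.74 and 2.79 stood almost side by side. Such close neighbours occurred in 25 of the 63 clusters, and 14 of the distances were under 500 bp. At such distances 1 broad site and a pair of sites cannot be told apart from the list. Counting regions up to 1 kb apart as 1 left 45 clusters with 3 or more regions. In 16 clusters every distance was over 5 kb.

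Regions next to each other often differed in score. For the 26 neighbours up to 1 kb apart, the higher score was a median of 1.54 times the lower. For the 112 neighbours farther apart it was 1.60 times. The scores were equal in 2 of the former and 7 of the latter. Such a ratio is 1 at the least, and counting error alone sets equal sites apart. The median clustered region, of 9 score steps, has a Poisson interval of 4.12 to 17.1. Whether the ratios exceed counting error was not tested.

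Clustered regions had a median score of 3.14 (binomial interval of the median 2.79 to 3.48), or 9 score steps, with a lowest value of 1.74 and a highest of 14.63. Their middle part, from the lower to the upper quartile, was 2.44 to 4.53. The regions in pairs had the same median of 3.14, with quartiles of 2.44 and 4.18. Regions with no close neighbour had a median of 2.79, a single step lower, with quartiles of 2.09 and 3.83. The share at 10 steps or more was 45.8% of clustered regions (92 of 201, interval 38.7 to 52.9%), 42.6% of paired regions and 35.0% of regions alone (interval 33.5 to 36.6%). At 20 steps or more the shares were 8.96%, 5.59% and 4.95%. At the low end, 35 clustered regions (17.4%) had 6 steps or fewer, against 28.0% of regions alone. Among the 4693 regions kept, the very highest scores were not in clusters: the highest of 201 clustered regions was 14.63, and the 3776 regions alone reached 96.15. This depends on the exclusion, and the larger set can reach a higher maximum by its size alone. The 18 regions left out scored 12.19 to 84.31, lay crowded at 2 loci and are in none of these groups. Regions of 1 cluster share a locus and are not independent of each other.

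**Figure D2:**
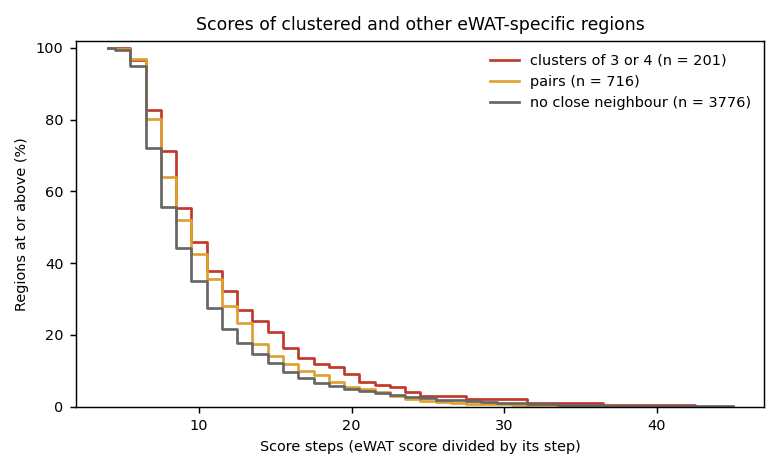
The x axis gives score steps and the y axis the percentage of regions at or above that number, for the 201 regions in clusters (red), the 716 in pairs (orange) and the 3776 with no close neighbour (grey). At 10 steps the lines stand at 45.8%, 42.6% and 35.0%. The axis stops at 45 steps, and a few regions alone lie beyond it.

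Scores within a cluster were unequal, but their counting intervals overlapped in most clusters. The highest region held 31.3 to 72.1% of the summed score steps of its cluster, with a median of 43.6%, and in 12 clusters its score was at least 2 times the next highest. The Poisson interval of the highest region lay wholly above that of the next in 5 clusters, and wholly above that of the lowest in 7. The highest region was the middle one in 19 of the 51 triplets, at an end in 28 and tied in 4. In the 12 clusters of 4 it was an inner region in 8 and an end region in 4. A triplet has more end places than middle ones, and a cluster of 4 has as many inner places as end places. Whether these counts differ from an even spread over the places was not tested.

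The sum of the scores of a cluster was 6.62 at the lowest, 11.49 at the median and 22.64 at the highest, or 19 to 65 score steps with a median of 33. In 57 clusters at least 1 region had 10 steps or more, in 27 at least 2 did and in 5 all did. The other 6 clusters consisted of regions of at most 9 steps. They lay at chr2:29036777-29047435, chr6:135701614-135717477, chr14:31422183-31426841, chr18:74138696-74159063, chr19:15985327-16003542 and chr19:21722002-21735037, loci singled out after their values were seen.

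The cluster with the largest sum lay on chromosome 4, at chr4:100347539-100365771. Its regions scored 14.63, 2.44, 3.48 and 2.09 in order along the chromosome, with 8765, 489 and 8779 bp between midpoints. The first of them was the highest clustered region of all, with 42 score steps (95% Poisson interval 30.3 to 56.8), and held 64.6% of the sum, so this cluster was a single strong site followed by weak ones. Another white-specific region, outside the cluster, lay 14.1 kb away.

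Other strong clusters had their signal more shared out. In the following loci the highest region held 36.7% and 40.7% of the score steps, in that order. The median over all clusters was 43.6%. At chr4:47142601-47151491 the 4 regions scored 4.88, 7.66, 4.18 and 4.18, spaced by 415, 7321 and 955 bp, and summed to 20.9. All 4 had at least 12 score steps. Regions up to 1 kb apart formed 2 groups in this cluster, 1 at each end, so it was among the clusters that fell below 3 regions when such neighbours were counted as 1. At chr9:46004992-46024068 the scores rose along the chromosome apart from a dip at the third region (2.79, 5.23, 4.18 and 8.36, spaced by 10359, 7801 and 717 bp) and summed to 20.56.

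Chromosome 12 held the strongest triplet, at chr12:71151641-71160881. Its regions scored 5.23, 9.41 and 5.57, spaced by 7226 and 1815 bp, and summed to 20.21. None of the 3 had fewer than 15 score steps, the highest floor of any cluster. The middle region had 27 steps (interval 17.8 to 39.3).

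On chromosome 2, a pair of clusters stood closer together than any others. The cluster of 4 at chr2:117591611-117612005 scored 2.44, 4.53, 7.32 and 4.53, spaced by 561, 9968 and 9666 bp. The triplet at chr2:117898650-117913089, named after its closeness was seen, scored 2.09, 6.97 and 5.57, spaced by 6405 and 7835 bp. Their nearest regions were 287 kb apart, and the nearest BAT-specific region was 602 kb from the former and 301 kb from the latter. A second pair of clusters stood 447 kb apart on chromosome 6. There the triplet at chr6:135242465-135255146 scored 2.79, 6.62 and 6.27, whereas the one at chr6:135701614-135717477 scored 2.79, 1.74 and 2.09, the smallest sum of all (19 score steps, interval 11.4 to 29.7).

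Another 3 loci among the 10 largest sums were led by 1 region. At chr19:42268036-42287522 the 4 regions scored 10.8, 2.79, 3.14 and 2.09, spaced by 5665, 2783 and 10839 bp, so the strong site was again the first. At chr2:92449809-92457015 the middle region scored 12.54, between neighbours of 3.14 and 2.79. It had 36 score steps (interval 25.2 to 49.8) and the neighbour before it, of 3.14, was only 443 bp away. At chr11:53449081-53458153 a pair of regions of 3.14 each, 298 bp apart, was followed 8575 bp later by a region of 9.41.

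The cluster at chr1:156740724-156745066 had 1 of the 10 largest sums and was also among the shortest. Its scores of 8.01, 6.62 and 3.83 fell along the chromosome over 4.14 kb, spaced by 3798 and 345 bp, and all 3 regions had at least 11 score steps. Together the 10 clusters with the largest sums held 24.7% of all score steps in clusters. They were chosen by their sums, so a share above 10 of 63 follows from the choice.

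The most uneven cluster was not among those 10. At chr4:43978790-43995553, named after its values were seen, a middle region of 10.8 stood between regions of 2.09 on both sides, 7882 and 8682 bp away, and held 72.1% of the sum. Its 31 score steps (interval 21.1 to 44.0) stood against 6 in each neighbour, and its score was 5.17 times theirs.

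The remaining clusters of 4 had lower sums, from 10.45 to 13.59. At chr2:169767704-169774187 the scores were 3.48, 2.09, 5.23 and 2.79 over 6.28 kb. At chr4:107663484-107671172 they were 2.79, 4.18, 2.44 and 2.44 over 7.49 kb. At chr7:147949513-147954524, the most compact cluster of 4, they were 2.44, 3.48, 2.09 and 3.14 over 4.81 kb. These 3 clusters had their regions within a shorter stretch than the median triplet.

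Looser clusters of 4 lay on chromosomes 5, 6 and 19. At chr5:44183703-44196929 the scores were 2.09, 3.48, 3.83 and 2.09 over 13.0 kb, with the inner pair higher than both ends. At chr6:91431431-91443975 they were 2.79, 1.74, 3.83 and 3.14 over 12.3 kb, and the inner regions stood 324 bp apart. At chr19:9041750-9060605 they were 2.09, 2.09, 3.83 and 3.14 over 18.7 kb. The longest cluster, at chr6:122628112-122652769, had weak and evenly spaced regions of 2.79, 2.09, 2.09 and 3.48, at distances of 7753, 9453 and 7252 bp. In these 4 clusters no region had more than 11 score steps.

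Among the triplets, the shortest lay at chr7:93922208-93924724, where scores of 4.53, 2.44 and 2.09 fell along 2.32 kb. It was also the cluster farthest from any BAT-specific region, at 2340 kb. The next shortest were chr5:114122564-114126274 (2.79, 5.57 and 2.79 over 3.51 kb), chr17:14365512-14369257 (2.79, 3.83 and 2.44 over 3.55 kb) and chr12:87416576-87420609 (2.79, 2.79 and 4.88 over 3.83 kb). The first and the third of these kept more than 1 kb between all neighbours, whereas the cluster on chromosome 17 had a pair 485 bp apart.

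The longest triplets were close to the limit that the joining distance sets. At chr11:120091740-120114253 regions of 2.79, 4.18 and 3.14 were 11834 and 10480 bp apart. The others lay at chr2:154406413-154427323 (2.79, 2.09 and 4.53), chr18:74138696-74159063 (2.79, 2.09 and 2.79), chr11:79961963-79982203 (4.53, 5.57 and 2.79) and chr8:129164257-129184051 (1.74, 8.36 and 4.18), with lengths of 19.6 to 20.7 kb. Only the last of these 5 had a region of 20 score steps or more.

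The other 37 clusters, all triplets with 111 regions in all, were 4.459 to 18.016 kb long with a median of 10.8 kb. Their summed scores were 6.62 to 15.33 (median 10.8), and their highest regions scored 2.79 to 10.8.

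The joining distance divides a continuum. Just inside it, the last region of the cluster at chr1:170149342-170162391, named for this distance, lay 12.484 kb from the previous one, and the last of chr11:79961963-79982203 lay 12.401 kb away. Just outside it, a region at chr13:13580165-13580364 (score 5.92) missed a pair by lying 12.873 kb from it, and a pair starting at chr6:55162028-55162227 (score 2.09) lay 12.895 kb from a single region.

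A brown-specific region within 50 kb was uncommon both for the white clusters and for the other white-specific regions. The distance from a cluster to the nearest BAT-specific region is the shortest over its regions. It had a median of 191 kb and ran from 0.73 to 2340 kb. A BAT-specific region lay within 50 kb of 8 of the 63 clusters (12.7%, exact interval 5.65 to 23.5%) and within 12500 bp of 1. Counted by region, 2 of the 201 clustered regions (0.995%, interval 0.121 to 3.55%) had a BAT-specific region within 12500 bp. Both belonged to the same cluster, so they are a single locus. Of the other 4492 white-specific regions, 1 lies on chromosome Y, which has no BAT-specific region, and was left out of these shares. Among the remaining 4491 the number was 186 (4.14%, interval 3.58 to 4.77%). Within 50 kb the shares were 10.4% (21 regions, interval 6.58 to 15.5%) and 15.8% (interval 14.7 to 16.9%). The median distances were 202 and 235 kb. Regions of a cluster share their neighbours, so the intervals counted by region are too narrow for the clustered regions. Both lists come from the same comparison of depots, and for both reasons these shares were not tested against each other.

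**Figure D3:**
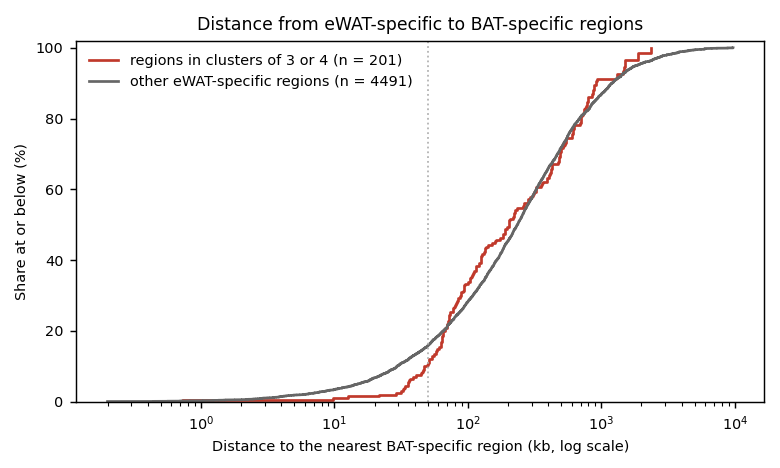
The x axis gives the distance in kb, on a log scale, from a white-specific region to the nearest BAT-specific region, and the y axis the percentage of regions at or below that distance. The red line stands for the 201 clustered regions and the grey line for the 4491 others on chromosomes with a BAT-specific region. At the dotted line, 50 kb, the red line is at 10.4% and the grey line at 15.8%.

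A single cluster had a brown-specific region between its white-specific ones. In the triplet at chr11:120091740-120114253 the middle region (chr11:120103574-120103773, score 4.18, 12 score steps of the eWAT list) lay 730 bp from a BAT-specific region (chr11:120104304-120104503, score 4.05, 59 score steps of the BAT list). The steps of the 2 lists differ in size (0.348 for eWAT and 0.0687 for BAT), so scores of different lists are set side by side only. This locus therefore held a region assigned to each depot less than 1 kb apart.

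The next closest brown-specific regions lay outside the clusters. That beside chr16:24165527-24180645 was 21.4 kb away and scored 7.35, the highest BAT score among the 8, while the white-specific regions there scored 2.79, 3.48 and 3.83. Those beside chr2:92449809-92457015 (28.7 kb away, score 5.97) and chr2:84690892-84703546 (32.4 kb away, score 4.46) stood next to clusters with a strong region of 12.54 and 7.32. These strong regions were not the nearest members of their clusters and lay 35.3 and 44.8 kb from the brown-specific regions. The other 4 lay 31.7 to 46.7 kb from clusters at chr17:46261393-46266938, chr8:129164257-129184051, chr19:9041750-9060605 and chr3:19409255-19420309 and scored 2.13 to 2.88. The cluster on chromosome 8 also had a strong region, of 8.36, and the brown-specific region beside that cluster scored 2.33. These 8 were listed after their distances were seen.

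Brown-specific regions formed clusters of their own by the same joining rule: 65 clusters with 214 regions, 6.02% of the BAT list (interval 5.26 to 6.85%), with a median length of 10.8 kb. No white cluster touched a brown one. Both sets are few and short, and how many would touch by placement alone was not tested. The closest pair lay on chromosome 6, where the white cluster at chr6:91431431-91443975 and the brown cluster at chr6:91665220-91671702 were 221 kb apart. On chromosome 17, 310 kb lay between the white cluster at chr17:46261393-46266938 and the brown cluster at chr17:45940375-45951193. The BAT list is shorter and reaches down to other scores, so the numbers of clusters in the 2 lists are not comparable. The median was 52 score steps in the BAT list and 8 in the whole eWAT list, each in its own steps. If 1 step is 1 tag in both, the lists rest on unlike counts. What this does to the distances between white and brown regions was not tested.

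White clusters were found on 18 of the 19 autosomes. Chromosome 2 held 8 clusters with 26 regions, chromosomes 4 and 11 held 7 each with 24 and 21 regions, chromosome 19 held 6 with 20 and chromosome 12 held 5 with 15. The share of a chromosome's white-specific regions that lay in clusters was highest on chromosome 19, at 13.2% (20 of 152, interval 8.23 to 19.6%), followed by chromosome 4 at 8.08% (interval 5.25 to 11.8%), chromosome 12 at 7.61% and chromosome 2 at 7.54%. Chromosome 1 had 322 white-specific regions and 6 of them in clusters (1.86%, interval 0.687 to 4.01%). Chromosome 10 had 0 of 219, which allows a share of up to 1.37%, and chromosome X had 0 of 77, which allows up to 3.90% (limits of 3 counts of the total). Regions of a cluster come at least 3 at a time, so these intervals are too narrow.

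The density of the list differs between chromosomes as well. White-specific regions per Mb, counted from the first to the last region of a chromosome, were 2.75 on chromosome 19 and 2.91 on chromosome 11. They were 1.56 to 2.35 on the other autosomes and 0.484 on chromosome X. A denser list leaves less distance between neighbours, and the part of density in these shares was not tested. The share in clusters was 6.10% on chromosome 11, the densest. Chromosome 10, without a white cluster, had 1.73 regions per Mb and carried 4 brown clusters. Chromosome 18 held 2 white clusters and 0 brown ones.

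**Figure D4:**
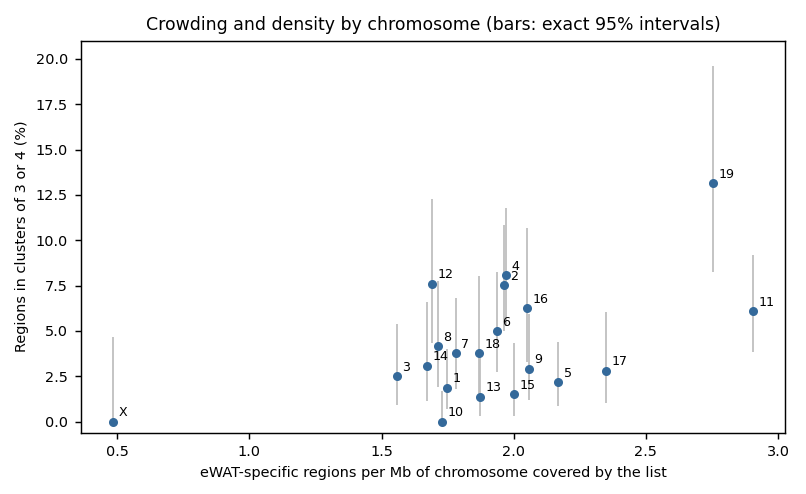
Each point is a chromosome. The x axis gives white-specific regions per Mb between the first and the last region of the chromosome, and the y axis the percentage of them in clusters of 3 or 4, with exact 95% binomial intervals as bars. Chromosome 19 is the highest at 13.2%, and chromosomes 10 and X lie at 0, with exact two-sided bars up to 1.67% and 4.68%, wider than the limits of 3 counts. Chromosome Y, with 1 region, is left out.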

How the data were processed

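Each depot has 1 headerless list of regions with a score, deposited by the authors. Per the submitters' processing notes, Bowtie and HOMER were used and the builds were mm8 and mm9, without roles. The rule for depot specificity, the peak threshold and the use of input DNA were not stated in any source used. Replicates were pooled before sequencing, so depth per animal is unknown and no test between depots was made.

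From the lists, clusters were joined by midpoint at 12500 bp (Python 3.11.15, pandas 2.3.3, scipy 1.17.1). The step of the deposited scores was found as the value with the smallest squared remainder relative to the step, within a preset range for each list. It was then refined by least squares, and steps outside these ranges were not tried. Shares have exact (Clopper-Pearson) 95% intervals, and the upper limit of a share of 0 is 3 counts of the total. All intervals cover counting error only. Joining and step fitting were tested on simulated data. Clusters named in full are those of 4 or more regions, the 10 largest sums of scores, and the 5 shortest and 5 longest triplets; others were named after their values were seen. The members and these rules were chosen with earlier results of these data known. Alternatives were other joining distances, merging of close regions, a score floor, larger clusters and other distances to BAT regions. Planned sequence motifs, gene positions and gene lists were not run, since no genome or annotation of mm9 was used.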

Additional observations from a re-analysis of the deposited data

How the results depend on the processing

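The number of clusters (63) and of regions in them (201) follows from the joining distance and the smallest size kept. At 5 kb there were 13 clusters with 42 regions, and at 25 kb 143 clusters with 483 regions. With regions at or above the median eWAT score alone there were 26 clusters with 80 regions, and their median score was 3.83, which the floor itself raises. With clusters of 4 or more alone there were 12 clusters with 48 regions. Regions within 1 kb counted as 1 gave 45 clusters with 139 regions, within 1.5 times the main numbers. The median score stayed at 3.14 under these settings apart from the score floor. The share of clusters with a BAT-specific region within 50 kb (12.7%) was 7.69 to 15.4% under the 5 alternatives for clusters. It was 1.59% for a distance of 12500 bp and 52.4% for 200 kb, as the wider distance must give more. The alternatives for sequence motifs and gene positions were not run. No paired analysis was possible because each depot has 1 library, and for the same reason no library could be left out. If 1 step is 1 tag, 109 of the 201 regions rest on fewer than 10 tags, which limits any ranking of regions within a cluster.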

Other observations

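The name of each region ends in a whole number. Low numbers went with high scores on a chromosome in general, but not strictly: in 62 of the 63 clusters the lowest number belonged to a highest-scoring region, and at chr17:46261393-46266938 number 285 scored 3.48 and number 341 scored 3.83. The numbers are given as deposited, without an explanation by the authors. The lowest number in a cluster came to a median of 13.1% of the highest number deposited for the chromosome. It lay in the first 10% for 22 of the 63 clusters (34.9%, exact interval 23.3 to 48.0%) and in the first 25% for 50. The cluster at chr19:42268036-42287522 held number 9 on a chromosome whose numbers reach 941, the cluster at chr4:100347539-100365771 number 14 of 1797, the cluster at chr2:92449809-92457015 number 24 of 2168 and the cluster at chr12:71151641-71160881 number 25 of 1192. At the other end, the lowest number in chr6:135701614-135717477 was 946 of 1631. Each cluster gives the lowest of 3 or 4 numbers, so these values are not comparable with those of single regions.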
